A study of Homo sapiens with 8 samples.

Results

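The genes described here carry cells through mitosis: 55 mitotic kinases, cyclins, spindle motors, kinetochore proteins and their partners, chosen by gene symbol from a list of names. Of the 55 listed genes 54 had at least 1 probe set whose platform annotation gave that symbol alone, with 145 probe sets in all, among 18132 genes on the array. PTTG1, which encodes the separase inhibitor securin, had no probe set of its own, because its probe set is shared with PTTG3P, so it was not measured here. All 54 lay above the brightness limit (the 40th percentile of mean level) in the USF1 and the UGT1A3 arrays, so no member was lost to that filter. RNA came from H1299, a human cell line of non-small cell lung cancer, on 8 one-colour Affymetrix arrays, each with 1 biotin-labelled total RNA sample. In the USF1 set, 3 arrays held RNA of cells given a short hairpin RNA construct targeting USF1, an E-box binding transcription factor, and 3 held RNA of their controls. In the UGT1A3 set, 1 array was of cells with hairpins targeting UGT1A3, a glucuronosyltransferase, and 1 was of its control. The labels give no further detail of the control constructs, no time after transfection and no number of hairpins, and all cells were grown in RPMI-1640 with fetal bovine serum. Nothing in the labels says that arrays of a group were grown as separate cultures, so the p-values speak to the variation among these arrays alone, and it may be technical.

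A cell enters mitosis when CDK1 bound to cyclin A or B is freed from inhibitory phosphates by CDC25 phosphatases, with PLK1 and the Aurora kinases acting alongside. Kinesins then build and move the spindle, the kinetochore fastens each chromosome to it, and unattached kinetochores hold back the anaphase-promoting complex through the checkpoint proteins MAD2L1, BUB1B and BUB3. When CDC20 is released the complex destroys cyclin B and securin, separase opens the cohesin rings and the chromosomes part. Most of these genes are expressed mainly in the G2 and M phases, so in a bulk sample fewer dividing cells and less RNA per dividing cell cannot be told apart.

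Promoter sequence was not used in the selection by name. RefSeq promoter windows of GRCh38.p14 were found for 45 of the 55 genes, and the 250 bases before the gene start were searched on both strands for 3 motifs. The CCAAT box (CCAAT), the site of the factor NF-Y, was present in 77.8% of the 45 genes against 37% of all 27305 genes with a window. The cell cycle homology region (TTTGAA), bound by the MuvB complex, was present in 51.1% against 16.1%. The E-box CACGTG, which USF1 binds, was present in 5 genes, 11.1% against 7.73%. Some genes had several windows, and a gene counted when any of them held the motif. A match is a stretch of letters and not a shown binding site. The windows below are those of 3 genes with an E-box (CENPE, CENPF and PLK1), of the kinesin gene with the largest fall after USF1 knockdown (KIF11) and of the gene with the largest decrease in the UGT1A3 pair (CDC20). Each is written 5′ to 3′ on its gene's strand, with the matches to the 3 motifs in capitals.

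CENPE (chr4:103198344-103198593, minus strand): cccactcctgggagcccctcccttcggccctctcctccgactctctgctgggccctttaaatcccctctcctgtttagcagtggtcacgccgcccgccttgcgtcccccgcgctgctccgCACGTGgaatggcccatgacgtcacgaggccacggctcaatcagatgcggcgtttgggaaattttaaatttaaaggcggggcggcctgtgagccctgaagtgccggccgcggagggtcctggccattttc
CENPF (chr1:214602945-214603194, plus strand): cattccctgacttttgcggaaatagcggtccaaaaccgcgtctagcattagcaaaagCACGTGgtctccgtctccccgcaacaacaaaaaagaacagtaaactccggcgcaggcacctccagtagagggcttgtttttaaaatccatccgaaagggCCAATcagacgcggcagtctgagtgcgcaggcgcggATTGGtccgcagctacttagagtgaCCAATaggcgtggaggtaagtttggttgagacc
PLK1 (chr16:23678639-23678888, plus strand): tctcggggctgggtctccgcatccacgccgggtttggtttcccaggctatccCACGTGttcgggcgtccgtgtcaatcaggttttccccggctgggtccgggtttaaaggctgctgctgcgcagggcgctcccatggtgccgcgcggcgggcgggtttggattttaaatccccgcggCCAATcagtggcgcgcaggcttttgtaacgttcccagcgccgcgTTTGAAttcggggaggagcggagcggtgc
KIF11 (chr10:92592880-92593129, plus strand): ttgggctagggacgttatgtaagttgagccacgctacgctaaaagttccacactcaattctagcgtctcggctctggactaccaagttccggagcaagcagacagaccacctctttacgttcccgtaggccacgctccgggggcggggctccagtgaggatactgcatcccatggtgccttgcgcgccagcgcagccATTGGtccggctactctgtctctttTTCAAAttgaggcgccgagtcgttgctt
CDC20 (chr1:43358731-43358980, plus strand): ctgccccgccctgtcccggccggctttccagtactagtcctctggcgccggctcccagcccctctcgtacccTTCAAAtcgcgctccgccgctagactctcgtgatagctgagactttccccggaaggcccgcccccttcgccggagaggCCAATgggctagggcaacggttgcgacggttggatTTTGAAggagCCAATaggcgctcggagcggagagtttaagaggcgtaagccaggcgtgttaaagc

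In the CENPF window the E-box starts at base -193 from the gene start and 3 CCAAT boxes follow at -94, -58 and -33. PLK1 holds 1 of each motif, with the E-box at -198 and the cell cycle homology region at -29. KIF11 holds a CCAAT box and a cell cycle homology region, at -53 and -28, and CDC20 holds 2 of each. The CENPE window holds an E-box at -130 and neither of the others. The other genes with an E-box were CCNB1 and ANLN. Of the 5 genes with an E-box CENPF rose after USF1 knockdown, CENPE fell, and PLK1, CCNB1 and ANLN did not pass the test. Over all 11448 genes tested 40.7% passed (22% rose and 18.7% fell), and a link between the motif and the change was not tested.

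The targeted genes were checked first. USF1, with 1 probe set, read 6.31, 6.55 and 6.42 in control cells against 6.06, 5.88 and 6.13 after knockdown, without overlap, a mean of 75.6% of the control level (difference -0.40, SE 0.08, n = 3 against 3, limma adjusted p = 0.00818). UGT1A3 was not measured alone. The 9 probe sets it shares with other UGT1A genes were all under the brightness limit there, and 8 of the 9 were lower in the knockdown array. The brightest of them went from 4.56 to 4.31, so the UGT1A3 knockdown could be checked only jointly with its neighbours and near background. Median log2 intensity was 6.53 to 6.55 on the USF1 arrays and at most 5.63 on the UGT1A3 arrays, so each knockdown was set only against its own control. Of the line's epithelial and mesenchymal markers KRT8, KRT18, VIM and AXL were over the limit in both sets, whereas EPCAM and CDH1 lay under it in both. Of 9 leukocyte, endothelial and fibroblast markers PTPRC, CDH5, COL1A1 and COL3A1 lay under the limit in both sets. PECAM1, VWF and PDGFRB lay over it in both, and CD3E in the UGT1A3 set only. In the USF1 set the control means were 5.64 for PECAM1 and for VWF and 5.90 for PDGFRB, against a limit of 5.63. The limit is a percentile of level and not a call of detection. The macrophage gene CD68 was the brightest of the 9, at a control mean of 9.46 in the USF1 set. It read 7.71 in the UGT1A3 control against 8.18 after knockdown. Of the alveolar markers NKX2-1, SFTPC and AGER lay over the limit in both sets, at USF1 control means of 6.40, 6.57 and 6.87. SFTPB lay over it in the UGT1A3 set only. The 3′ signal of the array's control transcripts exceeded their 5′ signal on the USF1 arrays by 0.26 to 0.30 on average, with overlapping groups, and in the UGT1A3 pair by 0.10 (control) and 0.13 (knockdown). The part of these values in the results was not tested.

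After USF1 knockdown the mitotic genes split in both directions by small amounts. Of the 54, 12 rose and 10 fell at a limma adjusted p under 0.05, together 40.7% of the members, the same share as the 40.7% of all 11448 tested genes. Among all tested genes 22% rose and 18.7% fell. The median difference over the members was 0.01 on the log2 scale (knockdown minus control), as over all tested genes, and single members ran from -0.32 to 0.26. Changes of at least 1.2-fold were found in 3 members, all falls, namely MAD2L1, KIF11 and CENPK, whereas 7.09% of all tested genes fell and 7.58% rose by that much. By adjusted p a mitotic call after USF1 knockdown was thus no more frequent than a call among all tested genes. In the USF1 set the tested genes were not matched to the members by level. The knockdown arrays lay wholly above or below the controls for 35 of 54 members. This is a larger share than the 53.6% of all tested genes, and the difference was not tested. Leaving out an array lowered the number of calls. Without USF1 control 1 there were 7 rises and 7 falls, and without USF1 control 2 there were 8 and 6. Fewer arrays weaken the test for any gene. The share over all tested genes was not set beside these counts, so they do not single out an array.

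**Figure D1:**
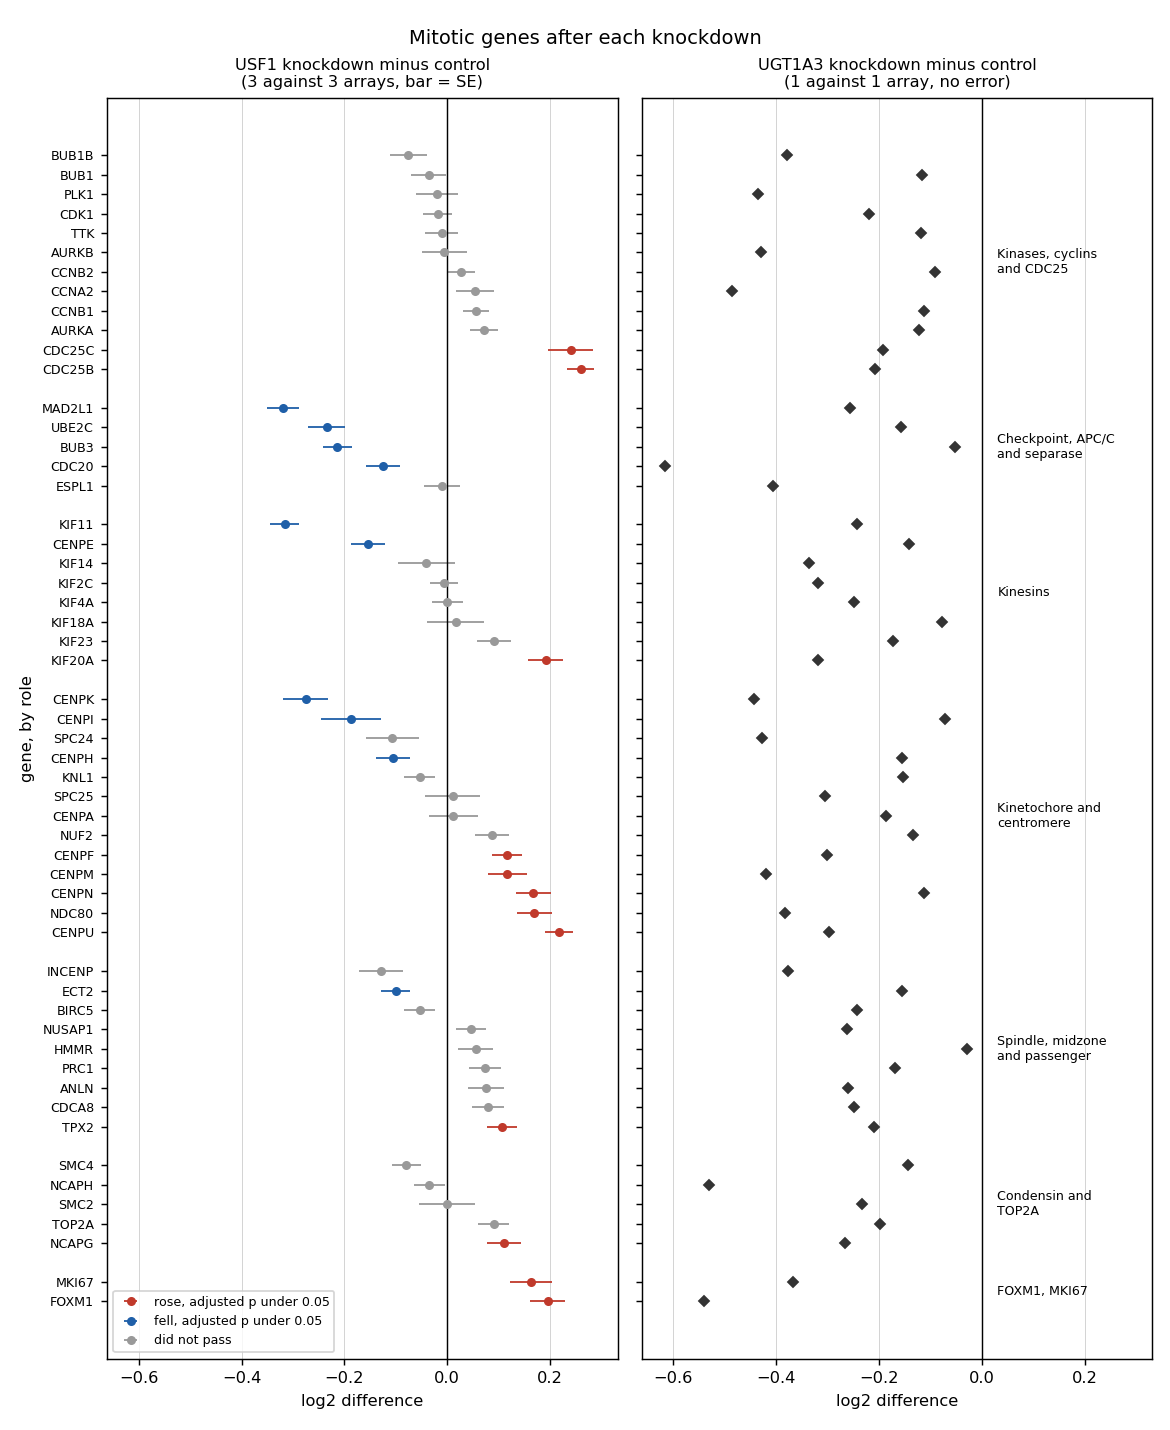
Log2 difference between knockdown and control (x axis) of each of the 54 measured mitotic genes (y axis, grouped by role), with USF1 knockdown on the left (mean of 3 against 3 arrays, bar = SE, red rose, blue fell, grey did not pass a limma adjusted p of 0.05) and the single UGT1A3 pair on the right (no error available). USF1 differences lie on both sides of 0, from -0.32 to 0.26, while all 54 UGT1A3 differences lie below 0.

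The kinase and cyclin genes held few calls, 16.7% beside 40.7% of all tested genes. Of 12 members 2 rose and 0 fell (also 0 fell at an unadjusted limma p under 0.05), and the group median was 0.01. Both were CDC25 phosphatases, which activate CDK1, while CDC25A, a family member outside the 55 genes, was at 0.06 and did not pass (limma adjusted p = 0.152). CDC25B read 10.43, 10.42 and 10.43 in control cells against 10.70, 10.69 and 10.67 after knockdown, so the groups were well apart. It rose by 0.26 (SE 0.03, n = 3 against 3, limma adjusted p = 5.15e-04), reaching 120% of its control level, and all 5 of its probe sets rose when tested singly, by 0.25 to 0.36. CDC25C, expressed at the G2 to M step, read 9.39, 9.47 and 9.39 in control cells against 9.74, 9.62 and 9.62 after knockdown, also without overlap. It rose by 0.24 (SE 0.04, limma adjusted p = 0.00539). CDK1, the kinase that both activate, read 12.22, 12.20 and 12.23 in control cells against 12.20, 12.22 and 12.17 after knockdown, with overlapping groups. Its difference was -0.02 (SE 0.03, limma adjusted p = 0.646). The cyclins CCNA2, CCNB1 and CCNB2 differed by 0.05, 0.06 and 0.03, the entry kinases PLK1, AURKA and AURKB by -0.02, 0.07 and -0.01, and the checkpoint kinases BUB1, BUB1B and TTK by -0.04, -0.08 and -0.01. Of these BUB1B had the lowest difference, reading 10.62, 10.56 and 10.59 in control cells against 10.52, 10.56 and 10.46 after knockdown. None of the 10 passed, and their difference from the CDC25 genes was not tested. CCNB1 passed as a rise after quantile normalization (limma adjusted p = 0.0471) and with an intensity trend and robust prior (limma adjusted p = 0.0252). CDK1 passed as a fall, of 0.16, where its probe sets were averaged (limma adjusted p = 0.0145). AURKA passed as a rise under a stricter brightness limit (limma adjusted p = 0.0498) and under the trend and robust prior (limma adjusted p = 0.0112). BUB1B passed as a fall under the trend and robust prior (limma adjusted p = 0.0480).

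Falls were found among the regulators of anaphase other than the kinases. Of 5 measured members 4 fell and 0 rose (also 0 rose at an unadjusted limma p under 0.05). These calls were 80% of the group beside 40.7% of all tested genes, of which 18.7% fell. The group median was -0.21 against 0.01 over all tested genes. The grouping matters here: of the 5 checkpoint genes MAD2L1, BUB3, BUB1, BUB1B and TTK, the last 3 counted above as kinases, 2 fell. MAD2L1, the MAD2 protein that binds CDC20 to hold anaphase, read 10.28, 10.27 and 10.27 in control cells against 9.95, 10.00 and 9.91 after knockdown. All 3 knockdown arrays lay below the lowest control, and the gene fell by 0.32 (SE 0.03, n = 3 against 3, limma adjusted p = 4.56e-04), leaving 80.2% of its control level. Its other 2 bright probe sets fell by 0.37 and 0.48. UBE2C, the ubiquitin-conjugating enzyme of the anaphase-promoting complex, read 12.70, 12.71 and 12.77 in control cells against 12.54, 12.48 and 12.46 after knockdown, again without overlap. UBE2C fell by 0.23 (SE 0.04, limma adjusted p = 0.00259), and each of its 4 probe sets fell when tested singly. BUB3, which carries BUB1 and BUB1B to the kinetochore, read 11.85, 11.80 and 11.81 in control cells against 11.60, 11.62 and 11.61 after knockdown. It fell by 0.21 (SE 0.03, limma adjusted p = 0.0015), although its bright probe sets ran from -0.37 to -0.07. CDC20, the activator that MAD2L1 restrains, read 12.03, 12.06 and 12.06 in control cells against 11.97, 11.92 and 11.89 after knockdown. Its fall was 0.13 (SE 0.03, limma adjusted p = 0.022), and the adjusted p rose to between 0.0545 and 0.0733 when USF1 control 2, control 3, knockdown 2 or knockdown 3 was left out. Separase, encoded by ESPL1, differed by -0.01 (limma adjusted p = 0.831).

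Among the 8 kinesins 1 rose and 2 fell, 37.5% called beside 40.7% of all tested genes, with a median of -0.0027. KIF11, the bipolar motor that pushes the spindle poles apart, read 10.69, 10.66 and 10.71 in control cells against 10.37, 10.39 and 10.36 after knockdown. The groups were far apart relative to their spread, and KIF11 fell by 0.32 (SE 0.03, limma adjusted p = 3.46e-04), leaving 80.3% of its control level. Both KIF11 probe sets fell by 0.32. CENPE, a kinesin that moves chromosomes from the kinetochore, read 10.10, 10.10 and 10.11 in control cells against 9.99, 9.97 and 9.89 after knockdown and fell by 0.15 (SE 0.03, limma adjusted p = 0.011). KIF20A, a motor of the central spindle needed for cytokinesis, went the other way, reading 10.41, 10.47 and 10.49 in control cells against 10.65, 10.68 and 10.62 after knockdown. It rose by 0.19 (SE 0.03, limma adjusted p = 0.00484). The midzone motors KIF23 and KIF4A, the depolymerising KIF2C and KIF18A, and KIF14 differed by -0.04 to 0.09 and did not pass.

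**Figure D2:**
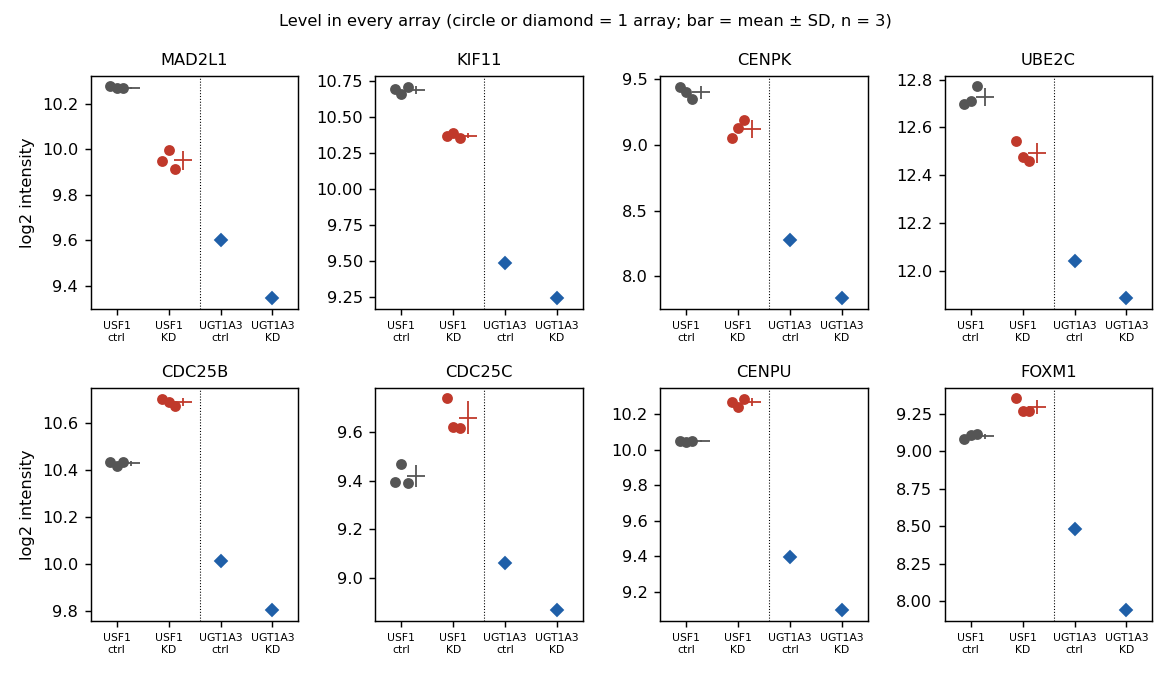
Log2 intensity (y axis) of 8 mitotic genes in every array (x axis groups), with 1 symbol per array, bars for the mean ± SD of the 3 USF1 arrays of a group, and diamonds for the single UGT1A3 control and knockdown arrays right of the dotted line. MAD2L1, KIF11, CENPK and UBE2C fell and CDC25B, CDC25C, CENPU and FOXM1 rose after USF1 knockdown with no overlap, and all 8 are lower in the UGT1A3 knockdown array; the 2 sets have different array medians, so levels are compared within a set only.

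Of the 13 kinetochore and centromere genes, the largest group, 5 rose and 3 fell, 61.5% called beside 40.7% of all tested genes, and their median was 0.01. The inner kinetochore network was divided. CENPK, a subunit that links the centromere to the microtubule-binding outer layer, read 9.45, 9.40 and 9.35 in control cells against 9.05, 9.13 and 9.19 after knockdown. It fell by 0.28 (SE 0.04, n = 3 against 3, limma adjusted p = 0.00324), leaving 82.6% of its control level. Its partner CENPI read 7.85, 7.85 and 7.91 in control cells against 7.68, 7.80 and 7.57 after knockdown. CENPI and the further partner CENPH fell by 0.19 and 0.11 (limma adjusted p = 0.0408 and 0.0423). In contrast CENPU, of the same network, read 10.05, 10.04 and 10.05 in control cells against 10.27, 10.24 and 10.29 after knockdown. CENPU rose by 0.22 (SE 0.03, limma adjusted p = 0.00109), and its second probe set rose by 0.33. CENPN, which recognises the centromeric histone, read 11.47, 11.55 and 11.48 in control cells against 11.70, 11.64 and 11.66 after knockdown. CENPM and CENPN rose by 0.12 and 0.17 (limma adjusted p = 0.0469 and 0.00869). In the outer kinetochore NDC80, the chain that grips the microtubule, read 11.59, 11.65 and 11.58 in control cells against 11.74, 11.77 and 11.81 after knockdown, with no overlap. NDC80 rose by 0.17 (SE 0.03, limma adjusted p = 0.00735). Its complex partners NUF2, SPC24 and SPC25 differed by 0.09, -0.11 and 0.01, and none of them passed. A dimmer SPC24 probe set fell by 0.21 when tested singly. CENPF, a large protein of the outer corona, rose by 0.12 (limma adjusted p = 0.0177), while the centromeric histone CENPA and the scaffold KNL1 differed by 0.01 and -0.05 without passing. Within the inner network, changes that passed the test were thus found in both directions.

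The spindle and midzone genes also held few calls, with 1 rise and 1 fall among 9 and a median of 0.06. The called share was 22.2% beside 40.7% of all tested genes. TPX2, which activates AURKA on the spindle, read 11.81, 11.87 and 11.84 in control cells against 11.95, 11.96 and 11.92 after knockdown and rose by 0.11 (SE 0.03, limma adjusted p = 0.026). ECT2, the exchange factor that starts the cleavage furrow, read 10.32, 10.29 and 10.28 in control cells against 10.18, 10.19 and 10.22 after knockdown and fell by 0.10 (SE 0.03, limma adjusted p = 0.0285). The passenger proteins BIRC5, INCENP and CDCA8 differed by -0.05, -0.13 and 0.08, and ANLN, PRC1, NUSAP1 and HMMR by 0.05 to 0.08. INCENP had the lowest difference of the group, reading 7.96, 7.95 and 7.85 in control cells against 7.82, 7.82 and 7.73 after knockdown, without overlap but with a limma adjusted p of 0.0512. None of these 7 passed in the main fit. Under the 14 alternative settings INCENP passed as a fall in 6. ANLN passed as a rise in 3 of them, CDCA8 in 2 and PRC1 in 1. Of 5 chromosome structure genes 1 rose and 0 fell (1 fell at an unadjusted limma p under 0.05), 20% called beside 40.7%. NCAPG, a condensin subunit, read 11.76, 11.71 and 11.78 in control cells against 11.88, 11.83 and 11.87 after knockdown and rose by 0.11 (SE 0.03, limma adjusted p = 0.032). The other condensin genes SMC2, SMC4 and NCAPH differed by -0.0012, -0.08 and -0.03 and topoisomerase TOP2A by 0.09, none past the threshold. SMC4 read 12.25, 12.22 and 12.24 in control cells against 12.16, 12.18 and 12.13 after knockdown, the lowest difference of this group. FOXM1, the transcription factor that drives many G2 and M genes, read 9.08, 9.11 and 9.11 in control cells against 9.35, 9.26 and 9.27 after knockdown. It rose by 0.19 (SE 0.03, limma adjusted p = 0.00434), and its 3 probe sets rose by 0.17 to 0.20 when tested singly.

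Of the 22 calls 12 kept their direction and their side of the threshold under all 14 alternative settings. MAD2L1, KIF11, CENPK, UBE2C, BUB3 and CENPE were the lasting falls, and CDC25B, CDC25C, CENPU, FOXM1, KIF20A and NDC80 the lasting rises. CENPH lost its call without any 1 of the 6 USF1 arrays (limma adjusted p = 0.0600 to 0.123). CENPI and NCAPG lost theirs without any array except knockdown 2, and CENPM and ECT2 without any except knockdown 3. TPX2 lost its call without control 1, control 3, knockdown 1 or knockdown 2, and CENPF without control 1 or control 2. MKI67 lost its call without control 1, control 2 or knockdown 1. CENPN lost its call only where the probe sets of a gene were averaged. Calls were also gained by members that did not pass in the main fit. Besides those named above, KIF23 and TOP2A passed as rises in 3 settings each and NUF2 in 2. SMC4 passed as a fall in 4 settings and SPC24 in 2.

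The choice of probe set decided the direction for some genes. When all bright probe sets were tested, 26 of the 136 of mitotic genes rose and 28 fell, beside 37.6% called among all 27182, and 6 of the 35 genes with several bright probe sets held opposite signs with at least 1 call. MKI67, the proliferation antigen Ki-67, was the clearest case. Its brightest probe set read 10.21, 10.28 and 10.34 in control cells against 10.48, 10.41 and 10.43 after knockdown, without overlap, and rose by 0.16 (limma adjusted p = 0.0228 in the fit of all probe sets). The other 5 MKI67 probe sets all fell, by 0.20 to 0.53 (limma adjusted p = 0.00036 to 0.0130), so no single direction can be given for this gene, which counts among the 12 rises by its brightest probe set alone. For CENPN the brightest probe set rose by 0.17 (limma adjusted p = 0.0116) and the second fell by 0.23 (limma adjusted p = 0.00526). CDK1 had 2 probe sets at -0.02 and -0.01, and another, near the limit with a mean of 5.82, that fell by 0.46 (limma adjusted p = 0.0100). In further members that did not pass, and whose bright probe sets shared a sign, a dimmer probe set passed a limma adjusted p of 0.05. These were ANLN (0.12), NUSAP1 (0.14), CENPA (0.21), PLK1 (-0.19) and SPC24 (-0.21). For SMC4 2 of them passed, at -0.21 and -0.22. The brightest KNL1 probe set read 10.96, 10.91 and 10.97 in control cells against 10.91, 10.87 and 10.90 after knockdown, and another KNL1 probe set rose by 0.17. For PRC1, the bundler of midzone microtubules, the brightest read 11.48, 11.52 and 11.52 in control cells against 11.61, 11.59 and 11.54 after knockdown. For SMC2, the shared condensin subunit, it read 10.69, 10.68 and 10.73 in control cells against 10.58, 10.78 and 10.74 after knockdown, with overlapping groups. In CENPI, KNL1, PRC1 and SMC2 the signs also differed between probe sets, and in each of these 4 a call was made in 1 direction only.

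**Figure D3:**
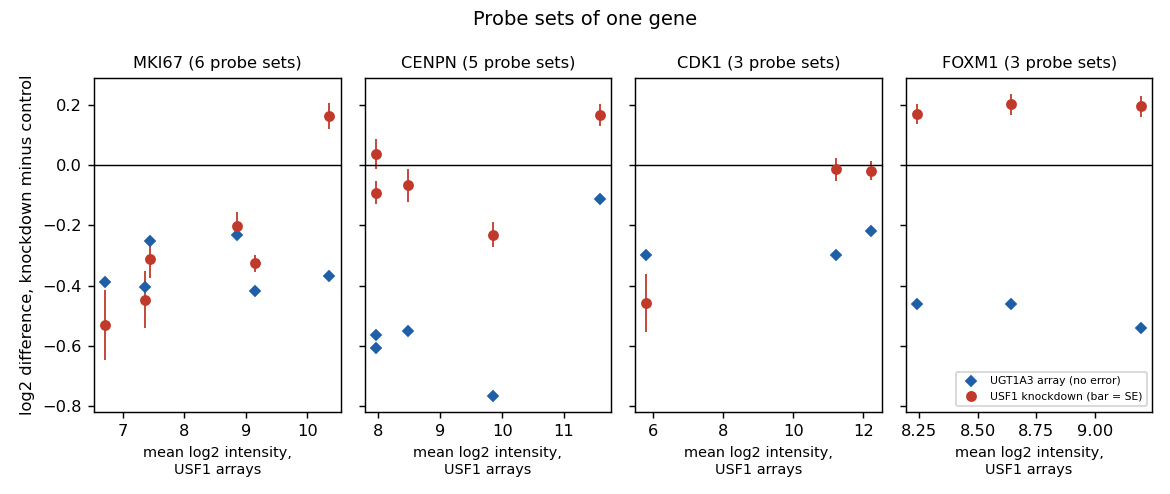
Log2 difference between knockdown and control (y axis) of each bright probe set of a gene against its mean log2 intensity on the USF1 arrays (x axis), with circles for USF1 knockdown (bar = SE, 3 against 3 arrays) and diamonds for the single UGT1A3 pair (no error). The brightest MKI67 probe set lies above 0 and the other 5 below it after USF1 knockdown.

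In the UGT1A3 pair every mitotic gene was lower in the knockdown array. All 54 members were lower, beside 46% of the 11620 genes over the limit, and 21 were lower by at least 1.2-fold (38.9%), beside 12% of those genes. At least 1.2-fold higher were 0 members, beside 15.6% of all genes. The median difference was -0.24 over the members against 0.02 over all genes, and members ran from -0.62 to -0.03. With 1 array a side there is no replicate, so these values compare 2 arrays and carry no test. The 2 arrays shared identical values at 2306 probe sets (4.67% of the table), against 145 between the first 2 USF1 controls, and the cause was not tested. Most members were bright, with 39 of 54 among the 2905 genes of highest control level, of which the median difference was -0.02 and 14.6% were lower by at least 1.2-fold. Among the 7825 genes between the lowest and highest member level 46.9% were lower and 12.8% lower by at least 1.2-fold.

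**Figure D4:**
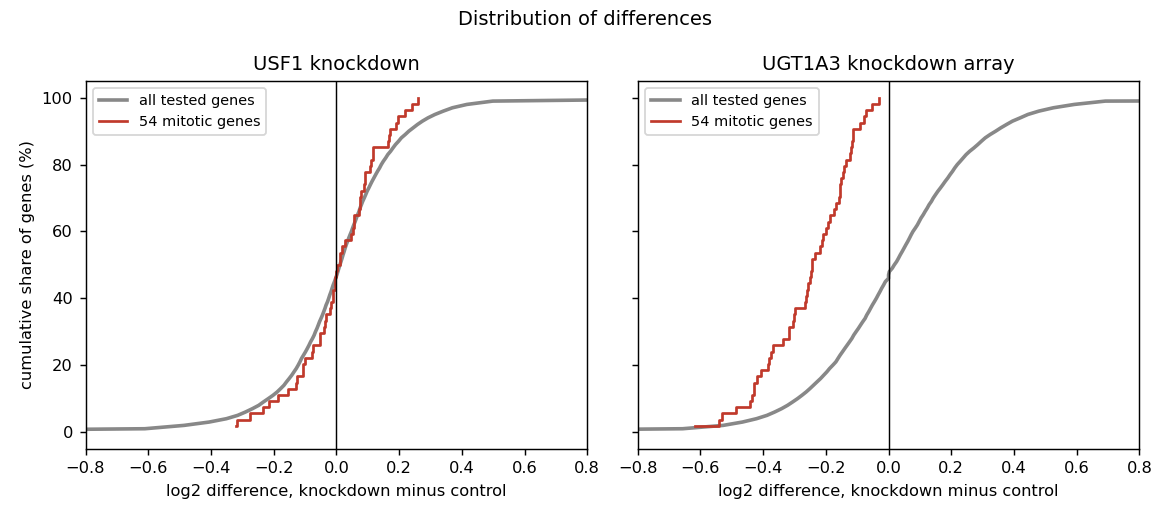
Cumulative share of genes in percent (y axis) by log2 difference between knockdown and control (x axis), for the mitotic genes (red steps) and all tested genes (grey), with the USF1 set and the UGT1A3 pair in separate panels. After USF1 knockdown both curves have a median of 0.01, while in the UGT1A3 pair the mitotic curve reaches 100% left of 0 and its median is -0.24.

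The lower level was found in every role. Among kinases and cyclins 4 of 12 were lower by at least 1.2-fold (33.3%, beside 12% of all genes), with a median of -0.20. Cyclin A2 (CCNA2), the partner of CDK1 and CDK2, read 10.76 in the control against 10.27 after knockdown, a difference of -0.49. PLK1 read 7.84 in the control against 7.41 after knockdown and AURKB, the kinase of the chromosomal passenger complex, read 9.75 in the control against 9.32 after knockdown. BUB1B read 9.65 in the control against 9.27 after knockdown. The mitotic cyclins CCNB1 and CCNB2 differed by only -0.11 and -0.09, and CDK1 by -0.22. CDC25B and CDC25C, which rose after USF1 knockdown, were at -0.21 and -0.19.

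Of the checkpoint and anaphase genes CDC20 had the largest difference among all 54 members. It read 11.32 in the control against 10.71 after knockdown, which is 65.2% of control. ESPL1 read 8.84 in the control against 8.43 after knockdown, a difference of -0.41. The genes that fell furthest after USF1 knockdown in this group, MAD2L1, UBE2C and BUB3, were at -0.26, -0.16 and -0.05. Among the kinesins 3 of 8 were lower by at least 1.2-fold (37.5%, beside 12% of all genes). KIF14, a cytokinesis motor, read 8.06 in the control against 7.72 after knockdown. KIF2C, which depolymerises microtubules at centromeres, read 10.65 in the control against 10.34 after knockdown. KIF20A read 10.11 in the control against 9.79 after knockdown, and KIF11 differed by -0.24. KIF18A, a motor that damps chromosome movement, was nearest to its control level of the kinesins, at -0.08.

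Kinetochore genes held the most differences of at least 1.2-fold, 7 of 13 (53.8%, beside 12% of all genes), with a median of -0.30. In the microtubule-binding NDC80 complex, NDC80 read 10.68 in the control against 10.30 after knockdown. Its partner SPC24 read 8.70 in the control against 8.27 after knockdown, and SPC25 read 8.18 in the control against 7.87 after knockdown. The differences of NDC80, SPC24, SPC25 and NUF2 were -0.38, -0.43, -0.31 and -0.13, so all 4 subunits of the complex were lower. In the inner network CENPK read 8.28 in the control against 7.83 after knockdown, a difference of -0.44. CENPM read 8.43 in the control against 8.01 after knockdown, and CENPU read 9.40 in the control against 9.10 after knockdown. The corona protein CENPF read 9.43 in the control against 9.13 after knockdown, so the inner and the outer kinetochore were both lower. CENPI and CENPN were at -0.07 and -0.11, although other bright probe sets of CENPN reached -0.77. Thus CENPK was lower and CENPU was also lower here, whereas they had opposite signs after USF1 knockdown.

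In the spindle and midzone group 1 of 9 was lower by at least 1.2-fold, 11.1% beside 12% of all genes, so near the general share. It was INCENP, the scaffold of the passenger complex, reading 7.77 in the control against 7.39 after knockdown. The group median was -0.24, and HMMR, a spindle-associated protein, differed least of all 54, by -0.03. The condensin subunits NCAPH and NCAPG read 8.84 in the control against 8.31 after knockdown and 10.59 in the control against 10.33 after knockdown, respectively. FOXM1 read 8.48 in the control against 7.94 after knockdown, which is 68.7% of control and the second largest difference, and all 3 of its probe sets were lower, by 0.46 to 0.54. MKI67 read 9.35 in the control against 8.98 after knockdown, and here all 6 of its probe sets were lower. Of the 137 bright probe sets of mitotic genes 135 were lower, beside 46.5% of all 27195, and 55 were lower by at least 1.2-fold, beside 12.8%. The others were 1 BIRC5 probe set that was 0.03 higher and 1 KNL1 probe set with the same value on both arrays.

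Set side by side, the kinetochore, motor and kinase genes had 61.5% of 13, 37.5% of 8 and 16.7% of 12 called beside 40.7% of all tested genes, so that the motors were near the general share. Of the kinetochore calls only CENPK, CENPU and NDC80 lasted under all alternative settings. The motor calls KIF11, CENPE and KIF20A and the kinase group's calls CDC25B and CDC25C all lasted. These shares describe small groups, and no test of the difference was made. Their USF1 medians lay between -0.0027 and 0.01, and their UGT1A3 medians were -0.30, -0.25 and -0.20. Each knockdown had its own controls. Of the 54 genes 26 were lower in both sets and 28 were higher after USF1 knockdown and lower in the UGT1A3 pair. All 54 were lower in the UGT1A3 pair, so this split gives only the sign of the USF1 difference. Of 11130 genes tested in both sets 2693 were lower in both and 2383 were higher, then lower. The brightest probe set was chosen within each set, so CCNA2, ANLN, NUSAP1 and SMC2 were read from different probe sets in the USF1 and UGT1A3 arrays. Across the 54 genes the differences of both sets had a Pearson correlation of -0.04 and a Spearman correlation of -0.05. Across the 11130 genes these were 0.17 and 0.18, and genes are not independent replicates.

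Other mitotic genes, from a further list of 104 of which 103 were tested, were also divided after USF1 knockdown and mostly lower in the UGT1A3 pair. This list too was chosen with earlier results of these data known, so it is no independent check. In the USF1 set 15 rose and 18 fell, 32% called beside 40.7% of all tested genes, with a median of -0.00063. In the UGT1A3 pair 79 were lower, beside 46% of all genes, and 36 of the 103 (35%) were lower by at least 1.2-fold, beside 12%, but 5 were higher by that much, and the median was -0.17. Among 27 further kinetochore genes 4 rose and 7 fell, with the microtubule-tracking SKA1 at -0.51 (limma adjusted p = 1.53e-04), CENPW at -0.32, CENPQ at 0.19 and CENPT at 0.17. Of 21 further spindle genes 8 rose and 1 fell, among them the depolymerase KIF2A at 0.27 (limma adjusted p = 8.23e-04) and gamma-tubulin TUBG1 at 0.18, against the cytokinesis kinesin KIF20B at -0.30. Cohesin and condensin genes gave 0 rises (also 0 at an unadjusted limma p under 0.05) and 4 falls among 13, including the cohesin ring subunit SMC1A at -0.61 (limma adjusted p = 4.46e-05) and sororin, CDCA5, at -0.38. The anaphase-promoting complex and its partners, a list that besides subunits holds the coactivator FZR1, the ubiquitin-conjugating enzyme UBE2S and the inhibitor FBXO5, gave 0 rises (1 at an unadjusted limma p under 0.05) and 4 falls among 15, with ANAPC5 at -0.21 (limma adjusted p = 0.00134) and CDC26 at -0.14. Of 13 further kinases and phosphatases 1 rose, MASTL, which restrains the phosphatase that opposes CDK1, at 0.19, and 0 fell (also 0 at an unadjusted limma p under 0.05). Of 14 genes of the complexes that regulate cell cycle promoters 2 rose and 2 fell, with MYBL2 at 0.39 (limma adjusted p = 7.42e-04) and NFYC at 0.17 against E2F4 at -0.32 and RBL2 at -0.24. In the UGT1A3 pair the medians of these 6 lists ran from -0.24 for kinases and phosphatases to -0.05 for the anaphase-promoting complex and its partners. The called shares of the 6 lists after USF1 knockdown ran from 7.69% for kinases and phosphatases to 42.9% for spindle genes.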

How the data were processed

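RNA of 8 H1299 samples was hybridised to 1 array each. The authors deposited log2 intensity values per probe set, made with MAS5 per the submitters' processing notes; the scaling was not given in the sources used here. From these values the brightest probe set with a single gene symbol was kept for each gene, and genes under the 40th percentile of mean level in a set were left out. USF1 knockdown was tested with limma 3.58.1 in R 4.3.3 (lmFit and eBayes, 3 against 3 arrays, no block), with Benjamini-Hochberg adjustment over 11448 genes and a threshold of 0.05; the script was checked on simulated data. The UGT1A3 pair, 1 against 1, gave differences only. Depth does not apply to arrays, and their number limits the precision. Members and lists were chosen with earlier results of these data known. Values in every array were given for members called with at least 1.2-fold change, the largest rise and fall of each role, members at least 1.2-fold apart in the UGT1A3 pair and members whose bright probe sets differ in sign with a call; others with array values were added after theirs were seen. Of other mitotic genes, up to 2 with the smallest adjusted p in each direction were named. Alternatives covered scaling, the dim limit, the probe-set rule, the prior, a replicate block and each array left out.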

Additional observations from a re-analysis of the deposited data

How the results depend on the processing

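Of the 22 members called after USF1 knockdown 12 kept call and direction under all 14 alternatives. Calls numbered 7 rises, 6 falls and 13 in all with no dim limit. With an intensity trend and robust prior there were 20 rises, and BUB1B, SPC24 and SMC4 were added to the falls. The shares over all tested genes under these settings were not set beside the counts. Leaving out 1 array gave 7 to 11 rises, 6 to 8 falls and 14 to 18 calls, and medians of -0.0064 to 0.026 over all members, -0.0018 to 0.066 for kinetochore genes and -0.025 to 0.014 for spindle motors. With a gene's probe sets averaged, CENPN (-0.019, limma adjusted p = 0.671) and MKI67 (-0.28, limma adjusted p = 0.00206) reversed. There CENPI, ECT2 and NCAPG lost their calls, and CDK1 (-0.16, limma adjusted p = 0.0145), SMC4 (-0.16, limma adjusted p = 0.0061) and ANLN (0.09, limma adjusted p = 0.0237) gained one. With the replicate block 10 rose and 7 fell, 17 in all; same-numbered arrays correlated at -0.10, 0.20 and 0.09, and control 1 correlated best with knockdown 3, so the numbers were not taken to pair the samples. In the UGT1A3 pair all 54 members stayed lower under all 6 alternatives, with 20 lower by at least 1.2-fold after quantile normalization and 29 after centring each array. The medians were -0.22 (all members) and -0.18 (kinases and cyclins) after quantile normalization, -0.27 (all), -0.23 (kinases and cyclins) and -0.28 (spindle motors) after centring, and -0.19 (spindle motors) with the mean of probe sets. Where these values moved, the cause was not tested. The number of arrays, 3 a group and 1 a group, limits the precision.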
